A study of Mus musculus with 18 samples.

Results

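The 9 enzymes named Acly, Acaca, Fasn, Elovl1, Elovl6, Scd1, Scd2, Fads1 and Fads2 build fatty acids and set their length and number of double bonds. They were followed through the maturation of G1E-ER4 cells, a mouse line committed to the red cell lineage. Members were chosen by gene symbol: every probe set (the probes on the array that together read a transcript) whose platform symbol was 1 of these 9. This gave 11 probe sets for 7 genes, of 12422 probe sets and 8251 genes tested. No probe set used here carried the symbol Acaca or Fads2, so both were not analysed here.

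The line descends from embryonic stem cells in which Gata-1, a transcription factor that red cell precursors need, was disrupted. Its ER4 subclone carries Gata-1-ER, a fusion of Gata-1 with the ligand binding domain of the estradiol receptor, and all 18 samples came from this 1 subclone. The groups were untreated cells (0 h) and cells given estradiol for 3, 7, 14, 21 and 30 h, with 3 biological replicates (A, B and C) at each time. The labels place the 30 h course between the late BFU-E and the orthochromatic erythroblast. Nothing in them says whether the replicates came from separate cultures, so p values measure the spread between these samples. Total RNA was read on Affymetrix MG-U74Av2 arrays. No array of estradiol-treated cells without the fusion, or of untreated cells kept for the same time, was among the 18. Therefore time in culture, the hormone itself and Gata-1-ER cannot be told apart. In bulk RNA, fewer cells of a type and less RNA per cell cannot be told apart either.

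Fatty acid synthesis starts in the cytosol. Acly splits citrate into acetyl-CoA, Acaca turns acetyl-CoA into malonyl-CoA, and Fasn joins these units into palmitate. Enzymes of the endoplasmic reticulum then lengthen the chains (Elovl6 acts on palmitate and its neighbours, Elovl1 on very long saturated chains) and put in double bonds (Scd1 and Scd2 at the delta-9 position, Fads2 and Fads1 at the delta-6 and delta-5 positions). Dividing precursors need the products for new membranes, while a mature red cell has no organelles and no synthesis of its own.

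Fasn and Elovl6 were lower from 14 h of estradiol on, and Scd2 was lower at 21 h by both of its probe sets. Fads1 dipped at 3 h, as did Scd2 by 95758_at alone. Acly, Elovl1 and Scd1 passed the test at no time in the main fit. With the replicate letter as a block, Elovl1 was called at 14 h and 30 h, and Acly from 14 h to 21 h. Over all 6 times, limma's F test called 6 of the 11 member probe sets (Fasn, both of Elovl6, both of Scd2, and Fads1), where 27.2% of all probe sets were called. A probe set is called when its Benjamini-Hochberg adjusted p over all 12422 is below 0.05. All adjusted p values below are limma's. Log2 changes are of the signal after a constant of 16 was added, so those of dim probe sets are understated, and their errors are standard errors (SE). All comparisons with 0 h share the same 3 untreated arrays. Signals are on the deposited linear scale, and means carry the SD of n = 3 arrays.

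**Figure D1:**
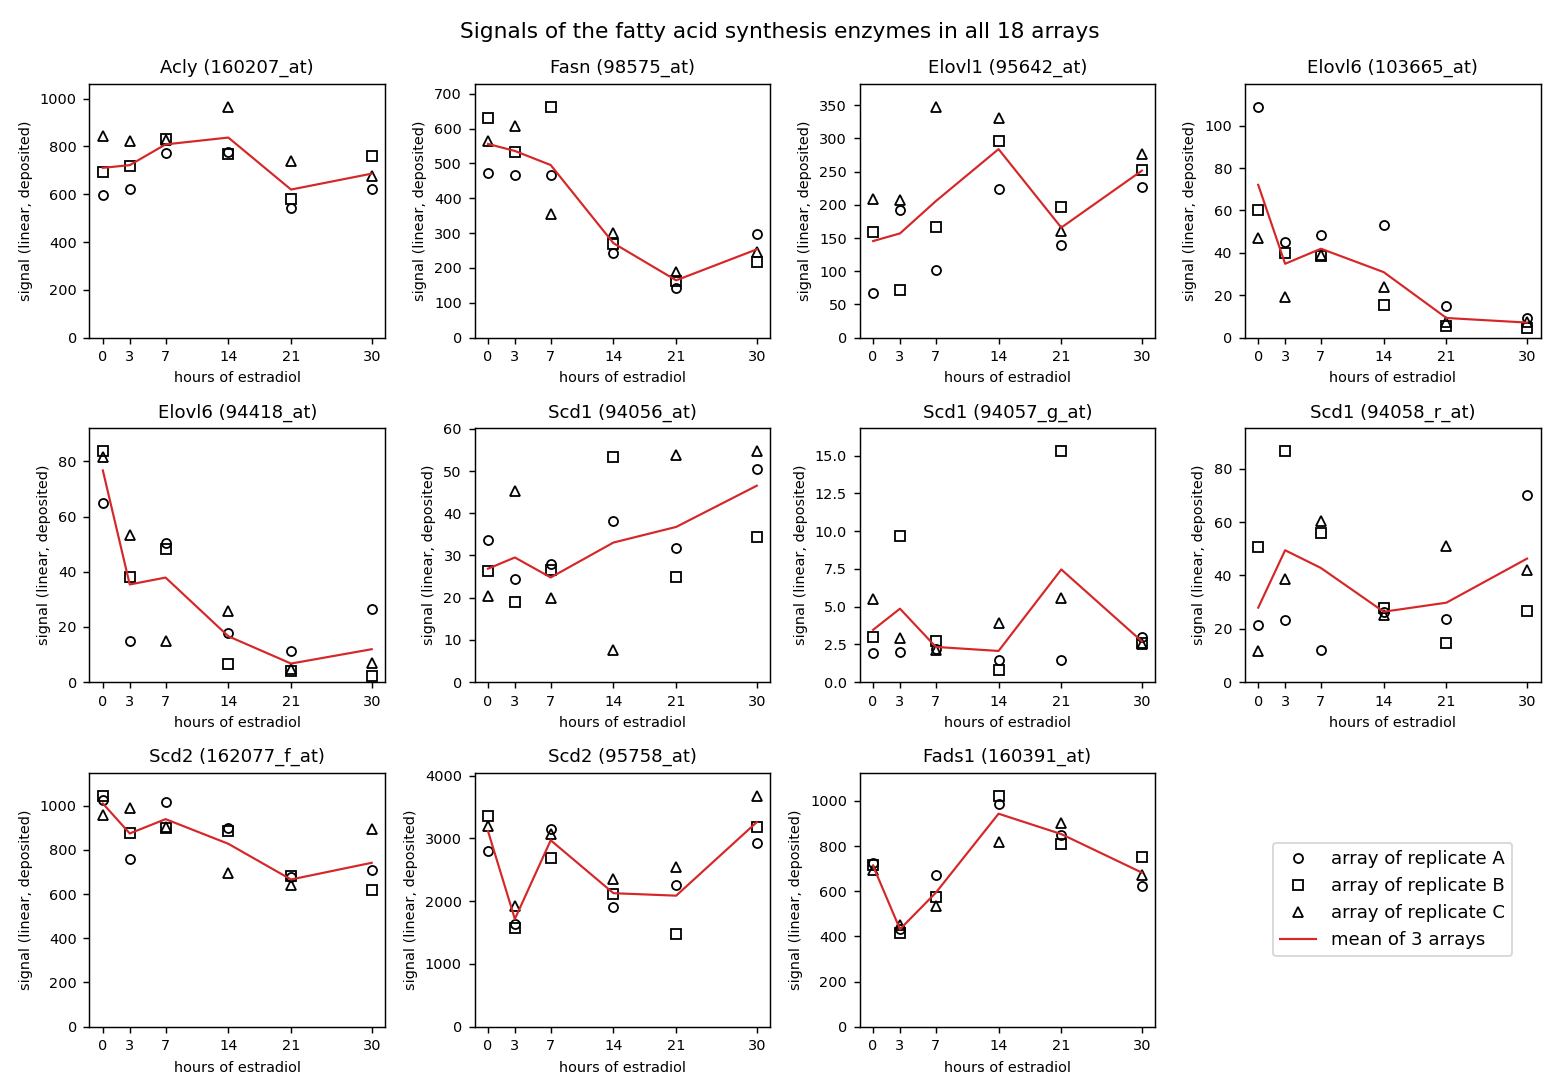
Signal of each of the 11 member probe sets (vertical axis, linear deposited scale from 0) against hours of estradiol (horizontal axis); circles, squares and triangles are the arrays of replicates A, B and C and the line joins the means of 3 arrays. Fasn and both Elovl6 probe sets sit lowest at 21 or 30 h, and Scd2 (95758_at) and Fads1 have their lowest mean at 3 h.

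The labelled cell type was borne out by the sum of its markers, though not every marker rose. Of 10 genes listed for red cell precursors 8 were measured, and their summed signal lay between 9909 and 12642 at 0 h and between 53545 and 65602 at 30 h. Hba-a1, adult alpha globin, had a mean of 6061 at 0 h and 26550 at 30 h. With Alas2 (12480) and Hbb-b2 (10900) it made up the largest parts of the 30 h sum. Epor read 584.5 at 0 h and 574 at 30 h (adjusted p = 0.944). The change of Tfrc, read by a probe set of uncertain assignment, was not called (adjusted p = 0.11). Since fat and liver cells are rich in fatty acid synthesis enzymes, their markers were read too. The 6 measured of 8 fat cell markers summed to 387 to 520.5 at 0 h, 95.4 to 223 at 21 h and 235 to 315 at 30 h, with Adipoq between 8.5 and 33.4 and Pparg between 0.7 and 5.5 on all arrays. Lpl, which is in this list, fell by 3.20 on the log2 scale by 30 h (adjusted p = 6.69e-08). Lep, the brightest of the list at 30 h, had means of 209 at 0 h and 220 at 30 h (log2 change 0.20, adjusted p = 0.801). The 5 measured of 6 liver markers summed to 83 to 117 at 0 h and 91.6 to 147 at 30 h. Those of macrophages and neutrophils (6 of 7) summed to 212 to 225 at 0 h and 242 to 392 at 30 h. Those of mast cells and megakaryocytes (4 of 6) summed to 56 to 107 and 122 to 171. Among them the mast cell protease Cma1 rose by 1.68 (adjusted p = 0.000563) and Cpa3, another, read by a probe set of uncertain assignment, fell by 0.70 (adjusted p = 0.0346). The part of these other cell types in the results was not tested. The median signal of an array, 38.2 to 50.9 over the 18, serves as a mark of dimness, because no detection calls were used here.

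Acly, the enzyme that supplies acetyl-CoA from citrate, was called at no time in the main fit. The untreated arrays read 595, 691 and 845, the 3 h arrays 621.5, 719 and 825, and the 7 h arrays 771, 829 and 825. The 14 h arrays read 779, 766.5 and 966, the 21 h arrays 540.3, 580.3 and 738, and the 30 h arrays 623, 759 and 676. The untreated arrays overlapped those of every later time. At 30 h the change was −0.03 with a 95% interval from −0.33 to 0.27 (adjusted p = 0.911). The largest change of Acly between neighbouring times, from 14 h to 21 h (−0.44, adjusted p = 0.128), was not called although the arrays did not overlap. With the replicate letter as a block that step was called (adjusted p = 0.0414).

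Fasn, the synthase that assembles palmitate, overlapped its untreated level for 7 h and was 3.05-fold lower by 21 h. The untreated arrays A, B and C read 472, 632 and 564 (mean 556 ± 80.1), the 3 h arrays 467, 533 and 608, and the 7 h arrays 468, 663 and 356. The 14 h arrays read 244, 268 and 301, the 21 h arrays 142, 164 and 188 (mean 164.5 ± 23.3), and the 30 h arrays 297, 218 and 246 (mean 254 ± 40.1). The first 3 times overlapped, every array from 14 h on lay below every array of those times, and the 21 h arrays lay below those of 14 h and 30 h. By the means, the order from high to low was 0, 3, 7, 14, 30 and 21 h, and within it neighbouring times overlapped except 7 h with 14 h and 30 h with 21 h.

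In the limma fit Fasn stood at −0.06 (SE 0.20, adjusted p = 0.993) at 3 h and −0.17 (adjusted p = 0.811) at 7 h. It fell by 0.96 on the log2 scale at 14 h (adjusted p = 0.00213), by 1.61 at 21 h (SE 0.20, adjusted p = 4.81e-06), and was still 1.99-fold lower by 30 h (adjusted p = 0.000605). Between neighbouring times the step from 7 h to 14 h was called (−0.79, adjusted p = 0.0381). The call of that step was lost without 3 h B, 7 h A, 7 h B, 14 h A, 14 h B or 14 h C (log2 changes −0.79, −0.80, −0.56, −0.72, −0.78 and −0.87, adjusted p from 0.0536 to 0.189), with scaling to a common median (adjusted p = 0.101) and in a fit of the 2 times alone (adjusted p = 0.193). The return from 21 h to 30 h was 0.61 (95% interval 0.20 to 1.03, adjusted p = 0.0913) and was not called, although all 3 arrays of 30 h lay above those of 21 h.

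Elovl6, the elongase that takes palmitate toward stearate, had a pair of probe sets, and both fell. For 103665_at the untreated arrays read 109, 60.2 and 47.1, the 3 h arrays 45.1, 40.1 and 19.3, the 7 h arrays 48.2, 38.5 and 39.1, and the 14 h arrays 53.0, 15.6 and 24.1. The 21 h arrays read 14.8, 5.6 and 7.4, and the 30 h arrays 9.2, 4.6 and 7.5. All untreated arrays lay above all arrays of 21 h and 30 h, whereas 14 h A reached into the untreated range. For the other probe set, 94418_at, the untreated arrays read 65, 83.7 and 81.5, the 3 h arrays 14.9, 38 and 53.3, and the 7 h arrays 50.3, 48.4 and 15. The 14 h arrays read 17.7, 6.4 and 25.8, the 21 h arrays 11.3, 4 and 4.9, and the 30 h arrays 26.5, 2.4 and 6.9. Here the untreated arrays lay above all 15 others. From 21 h on every Elovl6 signal was under the median of every array.

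At 30 h the log2 change of Elovl6 was −1.89 (SE 0.29, adjusted p = 3.37e-05) by 103665_at and −1.82 (SE 0.35, adjusted p = 0.00047) by 94418_at. At 21 h both were called as well (−1.76, adjusted p = 0.000113, and −2.02, adjusted p = 0.000246), and at 14 h they stood at −0.94 (adjusted p = 0.0326) and −1.54 (adjusted p = 0.00502). The sizes depended on the constant: at 30 h they were −3.19 and −3.12 with a constant of 1 and −0.91 and −0.89 with 64, all called. The 14 h call of 103665_at was lost without 0 h A, 0 h B, 14 h B or 14 h C (−0.69, −1.02, −0.74 and −0.90, adjusted p from 0.0521 to 0.177), without quantile normalization (adjusted p = 0.0671), with a constant of 1 (adjusted p = 0.0694) and in the fit of the 2 times alone (adjusted p = 0.134). At 3 h all treated arrays of both probe sets already lay below the untreated ones, with changes of −0.69 (adjusted p = 0.489) and −0.82 (adjusted p = 0.522) that were not called. No step between neighbouring times was called for Elovl6. Over the 18 arrays the log2 signals of its probe sets correlated at r = 0.752, a description of probes that share arrays and a transcript.

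RefSeq promoter windows, from 250 bases before to 50 after a start site in build GRCm38.p6, were matched for 4 of the 7 genes (Acly, Fasn, Elovl1 and Elovl6); the other 3 were Scd1, Scd2 and Fads1. The 250 bases before the start sites of Fasn (chr11:120824548-120824797, minus strand) and Elovl6 (chr3:129532136-129532385, plus strand) are shown 5′ to 3′. Both genes were chosen because their transcripts were called lower at 14, 21 and 30 h. The Fasn locus, on the minus strand, extends to base 120825166, so the start site used lies inside it. Both Elovl1 windows, from 118427843 and 118429451, also lie inside their locus, which starts at 118426874. Other start sites of these genes were not searched. Capitals mark every match to the motifs searched.
Fasn: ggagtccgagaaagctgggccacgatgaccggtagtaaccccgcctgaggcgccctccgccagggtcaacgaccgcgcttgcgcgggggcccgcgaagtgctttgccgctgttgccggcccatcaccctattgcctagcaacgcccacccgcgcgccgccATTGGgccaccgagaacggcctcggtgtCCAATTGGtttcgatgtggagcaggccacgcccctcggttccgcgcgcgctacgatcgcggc
Elovl6: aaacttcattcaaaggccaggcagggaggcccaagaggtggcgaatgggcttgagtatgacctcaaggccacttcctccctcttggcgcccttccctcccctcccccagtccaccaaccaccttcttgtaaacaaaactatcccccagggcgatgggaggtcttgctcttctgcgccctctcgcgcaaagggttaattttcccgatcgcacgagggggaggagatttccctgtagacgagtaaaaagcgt

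The letters searched on both strands were TCACNCCAC (the core of a sterol regulatory element), CACGTG (an E-box), CCAAT, and GGGCGG (a GC box). To these came 4 Gata words, which are AGATAA and the forms of it that begin with T in place of A, end with G in place of A, or both. The Fasn window held CCAAT 3 times, at −90, −62 and −59 from the start site, the last pair on opposite strands and overlapping in part. Of 32851 promoter windows of this length 37.4% hold CCAAT. The Fasn window held none of the other words, and the Elovl6 window held none at all. G and C made up 69.3% of the Fasn window and 55.7% of the Elovl6 window. Among the members that did not pass the test, the Acly window held GGGCGG 4 times and CCAAT 1 time, and the pair of Elovl1 windows held GGGCGG 5 and 2 times, with CCAAT 1 time in the first, at −35; GGGCGG is in 35.7% of windows. AGATAA stood at −174 on the minus strand in 1 of the Elovl1 windows, while 29.8% of windows hold at least 1 of the 4 Gata words. The sterol core was in none of these members' windows and is in 1.24% of all, and CACGTG, also in none, is in 7.15%.

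Elovl1, the elongase for very long saturated chains that end up in sphingolipids, spread widely. The untreated arrays read 67.9, 159 and 209.5, the 3 h arrays 192, 71.7 and 207, and the 7 h arrays 102, 167 and 348. Later, the 14 h arrays read 224, 296 and 331, the 21 h arrays 140, 196 and 161, and the 30 h arrays 227, 252 and 276. All arrays of 14 h and of 30 h lay above all untreated ones, but the change was not called at 14 h (1.05, 95% interval 0.22 to 1.88, adjusted p = 0.0983) or at 30 h (0.97, 95% interval 0.14 to 1.81, adjusted p = 0.0815). The SE of 0.40 was the second largest among the members, after 1 probe set of Scd1 (0.44). The 30 h change was 0.55 without 0 h A (adjusted p = 0.389). It was called without 0 h C (1.27, adjusted p = 0.0368), without 7 h C (0.97, adjusted p = 0.0491) and with the replicate letter as a block (adjusted p = 0.0378), as was the 14 h change with that block (adjusted p = 0.0447).

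Scd2, the delta-9 desaturase that is widespread outside the liver, was read by 95758_at and by 162077_f_at, whose suffix marks probes that may also read related transcripts. For 95758_at the untreated arrays read 2797, 3354 and 3203 (mean 3118 ± 288), the 3 h arrays 1644, 1580 and 1923 (mean 1715 ± 182), and the 7 h arrays 3146, 2692 and 3074. Later, the 14 h arrays read 1911, 2118 and 2353, the 21 h arrays 2251, 1472 and 2540, and the 30 h arrays 2924, 3176 and 3681. The arrays of 3 h, 14 h and 21 h lay below all untreated ones, and those of 7 h and 30 h overlapped them. The course therefore went down at 3 h, back by 7 h, down again at 14 h and 21 h, and back by 30 h.

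By 95758_at Scd2 fell by 0.92 on the log2 scale at 3 h (SE 0.18, adjusted p = 0.0118), or 1.89-fold, and the rise from 3 h to 7 h was 0.76 (adjusted p = 0.0488). At 14 h and 21 h Scd2 stood at −0.66 (adjusted p = 0.0179) and −0.82 (adjusted p = 0.00217), and from 21 h to 30 h it rose by 0.66 (adjusted p = 0.0397), to −0.16 against untreated cells (95% interval −0.54 to 0.22). That last change, on the normalized log2 scale, was negative although the deposited mean at 30 h, 3260, lay above the untreated 3118. The 3 h call was lost without 0 h B, 0 h C, 3 h A or 3 h B (−0.87, −0.87, −0.90 and −0.86, adjusted p from 0.0617 to 0.0711). The 14 h call was lost without 0 h B, 0 h C, 14 h A or 14 h B (−0.61, −0.61, −0.64 and −0.62, adjusted p from 0.0612 to 0.0719). With a common median the adjusted p values of these calls were 0.0825 and 0.0633. The rise from 3 h to 7 h kept its call without 0 h A, 21 h A, 21 h B or 21 h C, and lost it without any 1 of the other 14 arrays (0.65 to 0.86, adjusted p from 0.0516 to 0.198), as it was with a common median, a constant of 1 or the 2 times alone (adjusted p = 0.186, 0.0531 and 0.0647). The rise from 21 h to 30 h was lost with a common median (adjusted p = 0.0867), with the 2 times alone (adjusted p = 0.18) and without 0 h B, 3 h A, 3 h B, 21 h B, 30 h B or 30 h C (0.66, 0.66, 0.66, 0.41, 0.67 and 0.55, adjusted p from 0.0501 to 0.211).

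The other Scd2 probe set, 162077_f_at, gave a flatter course. The untreated arrays read 1028, 1046 and 958, the 3 h arrays 757, 875 and 992, and the 7 h arrays 1017, 899 and 904. The 14 h arrays read 900.3, 888 and 696, the 21 h arrays 676.5, 682 and 641, and the 30 h arrays 710, 621 and 895.5. The 3 h arrays overlapped the untreated ones (−0.24, adjusted p = 0.78), so the early dip was called by 95758_at alone. It fell by 0.65 at 21 h (adjusted p = 0.00264) and stood at −0.50 at 30 h (adjusted p = 0.0148), where 95758_at overlapped the untreated arrays. That 30 h call was lost without 0 h B or 30 h B (−0.47 and −0.37, adjusted p = 0.0526 and 0.0947). The 21 h fall was thus called by both probe sets, the 3 h, 14 h and 30 h changes by 1 of them each, and the correlation between them over the 18 arrays was r = 0.427.

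Scd1, the delta-9 desaturase best known from liver and fat, stayed dim. Its 3 probe sets ranged from 7.7 to 54.7 (94056_at), from 0.8 to 15.3 (94057_g_at) and from 11.5 to 86.6 (94058_r_at) over the 18 arrays, and the latter 2 carry suffixes that make the gene assignment uncertain. For 94056_at the untreated arrays read 33.7, 26.4 and 20.5 and the 30 h arrays 50.5, 34.4 and 54.7, which did not overlap, but the change of 0.57 was not called (95% interval −0.14 to 1.28, adjusted p = 0.258). None of the 3 was called in any comparison, and over all times the F test gave adjusted p values from 0.571 to 0.715. At 30 h the change by 94058_r_at, the brightest of the 3, was 0.59 (SE 0.44, adjusted p = 0.39). It was 0.94 without 0 h B, 0.32 without 0 h C, 0.32 without 30 h A, 0.91 with a constant of 1 and 0.29 with 64, and was called in none of these fits.

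Fads1, the delta-5 desaturase that makes arachidonic acid, went down and then up. The untreated arrays read 726, 714 and 696 (mean 712 ± 15.3), the 3 h arrays 432, 414 and 449 (mean 432 ± 17.4), and the 7 h arrays 671, 573 and 536. Later, the 14 h arrays read 989, 1023 and 819 (mean 943.5 ± 109), the 21 h arrays 850, 808 and 902, and the 30 h arrays 622, 754 and 671. At 3 h and 7 h all arrays lay below the untreated ones, at 14 h and 21 h all lay above, and at 30 h they overlapped. By the means the order was 14, 21, 0, 30, 7 and 3 h, and neighbours overlapped except 21 h with 0 h and 7 h with 3 h.

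Fads1 fell by 0.74 on the log2 scale at 3 h (SE 0.12, adjusted p = 0.0028), or 1.67-fold, and kept this call in all 18 fits without 1 array, but not with a common median (−0.61, adjusted p = 0.0769). From 3 h to 7 h the change was 0.48 (adjusted p = 0.0775). From 7 h to 14 h it rose by 0.65 (adjusted p = 0.0063; adjusted p = 0.136 in the fit of the 2 times alone). The 14 h level was above the untreated one by 0.39 (adjusted p = 0.0411). That call was lost without 0 h A, 0 h B, 0 h C, 3 h A, 14 h A, 14 h B, 21 h C or 30 h C (0.41, 0.39, 0.36, 0.39, 0.32, 0.34, 0.39 and 0.39, adjusted p from 0.0505 to 0.164), with a common median (adjusted p = 0.166) and in the fit of the 2 times alone (adjusted p = 0.128). At 30 h the change was −0.07 (95% interval −0.33 to 0.19), and the levels of 7 h (−0.26, adjusted p = 0.348) and 21 h (0.23, adjusted p = 0.227) were not called. The early dips of Fads1 and of Scd2 by 95758_at coincided at 3 h, and the courses then parted: at 14 h Fads1 was above and Scd2 below the untreated arrays.

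**Figure D2:**
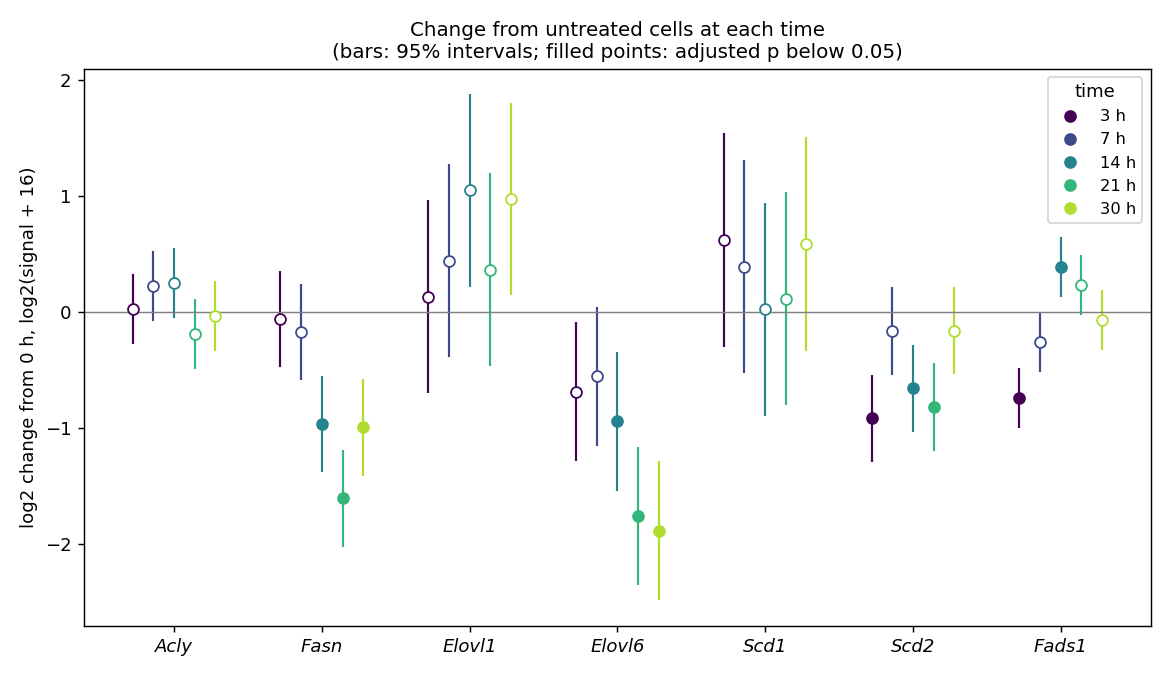
Log2 change from 0 h of log2(signal + 16) for 1 probe set of each of the 7 genes (the one with the highest mean), at 3, 7, 14, 21 and 30 h from left to right; bars are 95% intervals of the limma fit and filled points have an adjusted p below 0.05. Filled points of Fasn and Elovl6 lie at 14, 21 and 30 h, those of Scd2 at 3, 14 and 21 h, and those of Fads1 below 0 at 3 h and above 0 at 14 h.

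Counted together, 2 of the 11 member probe sets were called at 3 h, both lower, where 1.06% of all probe sets were called. At 7 h the count was 0 in limma, with a background of 4.17%, and 2 were below 0.05 before adjustment (Elovl6 94418_at and Fads1), beside 13.8% of all probe sets. At 14 h 5 were called, 4 lower and 1 higher (background 13.3%), at 21 h 5, all lower (background 20.7%), and at 30 h 4, all lower (background 26.7%). At 7 h, 11 probe sets were too few to tell a count of 0 from the background. At 3, 14, 21 and 30 h the share of member probe sets called was above it. This share counts every probe set of Elovl6, Scd1 and Scd2. Between neighbouring times 1 was called from 3 h to 7 h (background 1.06%), 2 from 7 h to 14 h (background 2.33%), 0 from 14 h to 21 h in limma (background 2.32%; before adjustment 4 members and 13.7% of all probe sets were below 0.05) and 1 from 21 h to 30 h (background 4.98%). The median log2 change over the 11 was −0.06 for 3 h, −0.09 for 7 h, −0.13 for 14 h, −0.19 for 21 h and −0.08 for 30 h. Over all probe sets the medians lay between −0.00415 and 0.0501. The 4 called at 30 h were those of Fasn, both of Elovl6 and 162077_f_at of Scd2. With 1 probe set for each gene, 2 of 7 genes were lower at 30 h, since 95758_at, the brighter for Scd2, was not called. By gene, 28.6% were thus lower and 0 higher, beside 16.5% lower and 14.7% higher among all 8251 genes. The share of genes called in either direction was therefore near that of all genes, and not above it. The 3 h count was 0 with a common median and 1 without 0 h B, 0 h C, 3 h A or 3 h B. The 14 h count was 3 with a common median, in the fit of the 2 times alone and without 0 h A, 0 h C or 14 h A, and 2 without 0 h B or 14 h B. The count from 21 h to 30 h was 2 without 7 h B.

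The transcripts whose log2 signal ran most like each changing member over the 18 arrays were found among genes with a mean signal of at least 100. Each gene was read by its brightest probe set alone, which was 103665_at for Elovl6 and 95758_at for Scd2. The other probe set of each correlated with it at r = 0.752 for Elovl6 and r = 0.427 for Scd2, less than the genes named here. For Fasn they were Ipo4, a nuclear import receptor (r = 0.926), the ribosome assembly gene Ppan (r = 0.921) and Ppp1r14b, a phosphatase inhibitor (r = 0.92). For Elovl6 they were Sec61a1, a channel subunit of the endoplasmic reticulum (r = 0.925), the import receptor Kpnb1 (r = 0.919) and Tagln2 (r = 0.918). For Fads1 they were Rnf5, a ubiquitin ligase of the endoplasmic reticulum (r = 0.891), the protease gene Sppl2b (r = 0.87) and the potassium channel Kcnn4 (r = 0.861). For Scd2 the best were lower, Klf9 (r = 0.721), Tbc1d10a (r = 0.717) and Sprr2e (r = 0.717), all read by probe sets of uncertain assignment. These values describe shared courses over arrays of 6 times and carry no test.

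The steps that feed the pathway moved in both directions. Of 11 measured genes of precursor and NADPH supply, 2 were called higher and 3 lower at 30 h, beside 14.7% higher and 16.5% lower among all 8251 genes. Me1, the malic enzyme that makes NADPH for fatty acid synthesis, fell from a mean signal of 73.4 to 8.63 (−1.87, SE 0.34, adjusted p = 0.000223; −3.10 and −0.91 with constants of 1 and 64), and Pdha1, a subunit of pyruvate dehydrogenase, from 580 to 187 (−1.46, adjusted p = 6.69e-08). Idh1, the cytosolic isocitrate dehydrogenase that also makes NADPH, rose from 118 to 359 (1.62, adjusted p = 8.17e-05). Citrate synthase Cs rose by 0.39 (adjusted p = 0.0245), a call lost without 0 h A, 0 h B, 30 h A or 30 h C (0.40, 0.33, 0.33 and 0.39, adjusted p from 0.0515 to 0.11). Slc25a1, the carrier that brings citrate out of mitochondria, was not called at 30 h (adjusted p = 0.61).

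A list of partner and related enzymes of elongation and desaturation also held the elongases Elovl2, Elovl3 and Elovl5, and Ppt1 and Degs1. Of its 10 measured genes 3 were higher and 1 lower at 30 h, beside 14.7% and 16.5% of all genes. Degs1, which puts the double bond into ceramides, rose from 179 to 1538 (2.92, SE 0.16, adjusted p = 4.12e-11), and Hacd3, a dehydratase of the elongation cycle, from 255 to 1172 (2.12, adjusted p = 2.6e-10). Cyb5a, the cytochrome b5 that passes electrons to desaturases, rose by 0.56 (adjusted p = 0.00204). Hsd17b12, the reductase of the same elongation cycle, fell from 383 to 142 (−1.22, adjusted p = 0.000898). Cyb5r3, the reductase for cytochrome b5, stood lower at 30 h without passing (348 against 504 at 0 h, adjusted p = 0.0515). Cyb5r3 was called without quantile normalization, with a common median, with the dimmest probe sets left out and without 7 h A, 7 h B or 30 h B (−0.45 to −0.53, adjusted p from 0.0147 to 0.0468), and the count lower was then 2.

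Among 20 measured regulators, 2 were called higher (10%) and 1 lower (5%) at 30 h. Beside 14.7% and 16.5% of all genes, these counts were too small to read a difference from them. Insig1, Nr1h3 and Pparg were dim, with highest means of 13.2, 7.80 and 3.77 over the times. Srebf1, the gene of the sterol regulatory factor that drives most of these enzymes in liver, had a mean of 909 in untreated cells, 789 after 3 h, 1037 after 7 h and 833 after 30 h, and was not called over time (F test adjusted p = 0.382). Prkab1, a subunit of the AMP-activated kinase that shuts off Acaca by phosphorylation, rose from 625 to 1876 (1.44, SE 0.12, adjusted p = 1.81e-08), and Stk11, the kinase that activates it, from 200 to 437 (1.18, adjusted p = 8.53e-06). Prkag1, another subunit of that kinase, was called over all times (adjusted p = 0.0444) but not at 30 h (0.33, adjusted p = 0.301). The 1 lower gene was Trib3, named because it was the single one (−1.85, adjusted p = 0.0217). The count lower was 0 without 0 h B, 0 h C or 30 h C and 2 without quantile normalization, with the dimmest probe sets left out, with the replicate block and without 14 h A, 21 h A, 21 h C or 30 h B.

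Genes that activate and carry fatty acids were called in 1 direction. Of 12 measured, 0 were higher and 5 lower at 30 h in limma, with a median log2 change of −0.37 beside 0.05 over all genes. Lower genes made up 41.7% of those measured, beside 16.5% of all genes. Lpl, which frees fatty acids from lipoproteins, fell from 203 to 7.10 (−3.20, SE 0.29; −1.86 with a constant of 64), Acsl5, an acyl-CoA synthetase, from 280 to 74.7 (−1.65, adjusted p = 6.54e-07), and the fatty acid binding protein Fabp5 from 454 to 171 (−1.25, adjusted p = 0.000114). Acsl4, which prefers arachidonic acid, fell by 0.86 on the log2 scale (adjusted p = 0.00533). Dbi, the acyl-CoA binding protein, fell by 0.64 (adjusted p = 0.0153), a call lost without quantile normalization (adjusted p = 0.058), with a common median (adjusted p = 0.158) and without 0 h A or 30 h A (−0.56 and −0.60, adjusted p = 0.0718 and 0.0522).

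Synthesis of glycerolipids and phospholipids, which uses the fatty acids, had 9 of 21 measured genes higher and 1 lower at 30 h, with a median of 0.585. These shares were 42.9% and 4.76%, beside 14.7% and 16.5% of all genes. Ptdss2, which makes phosphatidylserine, rose from 90.5 to 1702 by 30 h (3.93, SE 0.12, adjusted p = 5.64e-14), and Lpin1, a phosphatidate phosphatase, from 119 to 658 (2.37, adjusted p = 5.59e-09). Pcyt1a, the controlling enzyme of phosphatidylcholine synthesis, rose from 150 to 612 (adjusted p = 4.46e-08), and Pcyt2, its counterpart for phosphatidylethanolamine, from 672 to 2145 (adjusted p = 5.7e-08). Gpd2, the mitochondrial glycerol phosphate dehydrogenase read by a probe set of uncertain assignment, fell from 262 to 75.0 (adjusted p = 6.76e-06). Mitochondria have a fatty acid synthesis of their own, and of 6 listed genes 3 were measured. Of these 2 were lower: the acyl carrier protein Ndufab1 (1449 to 344, adjusted p = 5.1e-05) and the reductase Mecr (134 to 39.9, −1.42, adjusted p = 4.53e-05, and −0.91 with a constant of 64). Oxsm, the other measured gene, was dim, with means of 6.10 at 0 h and 13.0 at 30 h, and was not called (adjusted p = 0.132).

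Fatty acid breakdown was mixed, with 6 of 21 measured genes higher and 4 lower at 30 h. These shares were 28.6% and 19%, beside 14.7% and 16.5% of all genes, so the share lower was near that of all genes. Crat, the carnitine acetyltransferase, rose from 111 to 633 (2.41, SE 0.18, adjusted p = 5.69e-09), and Cpt1a, the gate for fatty acids into mitochondria, which malonyl-CoA blocks, from 128 to 625 (2.15, adjusted p = 9.75e-07). Of the genes called lower, Acaa2, a thiolase, fell from 950 to 598 (−0.69, adjusted p = 0.00313), the dehydrogenase Hadh from 212 to 85.6 (−1.05, adjusted p = 0.00139) and Decr1, which prepares unsaturated chains, from 101 to 21.3 (−1.67, adjusted p = 8.99e-05; −0.94 with a constant of 64). The count higher was 3 without quantile normalization, with a common median, without 30 h B and without 30 h C.

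**Figure D3:**
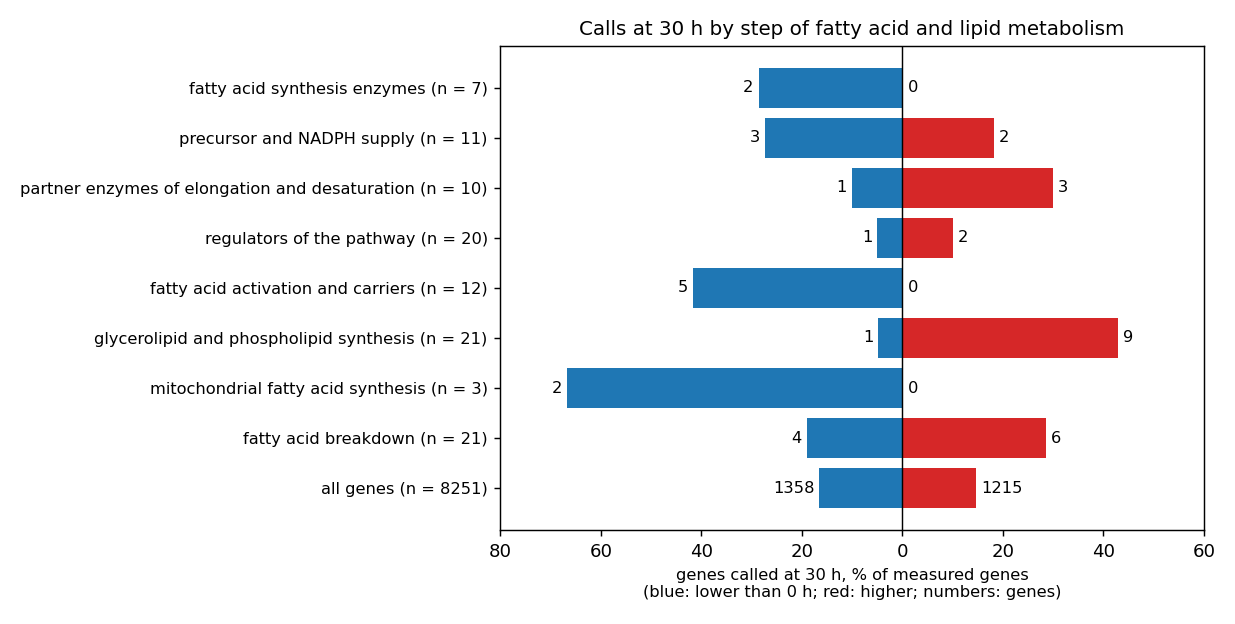
Share of measured genes called lower (blue, left of 0) and higher (red, right of 0) at 30 h against 0 h in each list of fatty acid and lipid metabolism, in % of the measured genes, with the number of genes at each bar and all 8251 genes at the bottom. Activation and carrier genes were called lower (5 of 12) and glycerolipid and phospholipid genes mostly higher (9 of 21), while 2 of the 7 fatty acid synthesis genes were lower.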

How the data were processed

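The 18 deposited columns hold linear intensity values, 1 for each of 12488 probe sets, as the authors' value table gives them. The summary method, scaling and detection calls are not given in the sources used here. Arrays had a 2% trimmed mean of 150.094 to 150.124, and 0 pairs of arrays were identical. After 66 control probe sets were left out, log2(signal + 16) was quantile normalized and fitted in limma 3.58.1 (R 4.3.3) with 1 mean per time, 12 residual degrees of freedom and an intensity trend; p values were adjusted over all 12422 probe sets. The fit was tested on simulated data. An exact permutation of 3 against 3 arrays cannot go below 0.1, so single calls rest on variance shared across probe sets.

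Gene names are those of the platform table; 10833 probe sets carry 1 symbol, 396 several and 1193 none. Of several probe sets for a gene, the brightest by mean log2 signal stood for it. The members, lists and tests were chosen with earlier results of these data known. Every member was named, and from each other list at most 5 genes with the smallest p among those the F test called, besides Srebf1, Slc25a1 and Trib3, chosen after their values were seen. Alternatives were other scaling, constants of 1 and 64, a filter on dim probe sets, the replicate letter as a block, the compared times alone, and each array left out. The number of arrays limits the precision. Deviations of same-letter arrays of different times correlated between −0.251 and 0.45 (median 0.067, over 0.1 in 18 of 45 pairs), and those of other letters between −0.367 and 0.21 (median −0.0355, over 0.1 in 6 of 90). As not every same-letter pair was over 0.1, the main fit has no block. Same-letter pairs had the higher median all the same, and an effect of the letter was not tested. The member calls that changed with a block are given below.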

Additional observations from a re-analysis of the deposited data

How the results depend on the processing

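The 21 h count (5 probe sets, all lower) and the F test (6) were within 1.5 times under every alternative run. So was the 30 h count of 4, which ranged from 3 to 5 with each array left out, and the 7 h count of 0. With a common median the counts were 0 at 3 h, 3 at 14 h, 0 from 3 h to 7 h, 1 from 7 h to 14 h and 0 from 21 h to 30 h. With the compared times alone they were 3 at 14 h and 0 for the steps from 3 h to 7 h, 7 h to 14 h and 21 h to 30 h, and with a constant of 1 the count from 3 h to 7 h was 0. With each array left out they ranged from 1 to 2 at 3 h, 2 to 5 at 14 h, 0 to 1 from 3 h to 7 h, 1 to 2 from 7 h to 14 h and 0 to 2 from 21 h to 30 h. The fit with the replicate letter as a replicate block gave 1, lower, from 14 h to 21 h (Acly, −0.44, adjusted p = 0.0414). The 14 h and 30 h counts became 6 and 5, with Elovl1 gained in both; the cause was not tested. No member's called change reversed. Over all probe sets, the common median gave 108 calls against 132 at 3 h, 320 against 518 at 7 h and 1259 against 1655 at 14 h. It gave 2311 against 2571 at 21 h and 3014 against 3314 at 30 h. Between neighbouring times it gave 43 against 132 from 3 h to 7 h and 158 against 289 from 7 h to 14 h. Later it gave 142 against 288 from 14 h to 21 h and 389 against 619 from 21 h to 30 h. The compared times alone leave fewer arrays for the spread. Dim signals limit Scd1 and the late Elovl6 values.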
